A study of Mus musculus with 4 samples.

Results

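The 10 genes followed here, of 31053 features in the count matrices, were the MHC class II antigen presentation genes H2-Aa, H2-Ab1, H2-Eb1, Cd74, Ciita, H2-DMa, H2-DMb1, H2-DMb2, H2-Oa and Cd86. They were chosen by gene name and not by any measured value, and each of the 10 names matched 1 feature. Their unique molecular identifier (UMI) counts came from single-cell RNA sequencing of EGFP-positive, Ly6G-negative cells sorted from the hearts of CSF1R-EGFP mice aged 12 to 16 weeks, whose EGFP is under control of the Csf1r promoter. The baseline library pooled the hearts of 3 mice that had no surgery. Each of the 3 infarct libraries came from 1 heart taken 7 days after ligation of the left coronary artery, with the non-infarcted remote zone cut away before digestion, so the infarct cells came from the infarcted region and the baseline cells from whole hearts. Every mouse in all 4 libraries carried the reporter, and no library came from a sham-operated heart.

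MHC class II molecules show peptides from engulfed material to CD4 T cells. The alpha and beta chains assemble in the endoplasmic reticulum on the invariant chain CD74, which blocks the peptide groove and steers the complex to the endosome. There cathepsins trim CD74, H2-DM removes the remaining fragment and edits the bound peptides, and H2-DO holds H2-DM back. CIITA is the coactivator that switches the whole set of genes on, and CD86 is the costimulatory ligand that T cells also need. In the heart, class II levels are a customary way to divide macrophages, and dendritic cells carry the most.

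Of the 10 genes, 7 lie within 224 kb of mouse chromosome 17 (GRCm38, from 34092340 to 34316674): H2-Oa, H2-DMa, H2-DMb2, H2-DMb1, H2-Ab1, H2-Aa and H2-Eb1 in that order. Ciita (10480059 to 10528418, plus strand) and Cd86 (36603869 to 36666081, minus strand) lie on chromosome 16. Class II promoters are known for a shared W/S, X, X2 and Y arrangement that holds the RFX, CREB and NF-Y factors with which CIITA works. RefSeq promoters (GRCm38.p6, 250 bases before to 50 after a start site) were at hand for 6 of the 10 genes, and were searched on both strands for the Y-box letters TGATTGG, the X-box-like letters AACNGATGA and the cyclic AMP element letters TGACGTCA, 3 motifs that were picked after these promoters had been read and whose matches did not overlap one another in them. The Y-box letters stood in 5 of the 6 promoters and in 7.82% of 32851 mouse promoters. The X-box-like letters stood in H2-Eb1, H2-DMb1 and H2-DMb2, and in 0.648% of all promoters, and 20 promoters (0.0609%) held both. The stretches around the matches in H2-Aa, H2-Eb1 and H2-DMb2 are printed to show the matched letters, in capitals, in their context; H2-Aa had no match to the X-box-like letters. They hold no annotated exon base of their own gene, and exons of other genes were not checked. They lie at chr17:34287857-34287912 (minus strand), chr17:34305763-34305822 (plus strand) and chr17:34145113-34145173 (plus strand), the last inside the annotated span of its gene.
H2-Aa: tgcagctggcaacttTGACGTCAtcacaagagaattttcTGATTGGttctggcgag
H2-Eb1: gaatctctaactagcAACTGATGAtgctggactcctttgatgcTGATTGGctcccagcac
H2-DMb2: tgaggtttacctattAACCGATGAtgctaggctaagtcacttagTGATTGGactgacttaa
The Y-box letters began 28 bases after the X-box-like letters in H2-Eb1 and 29 bases after them in both H2-DMb1 and H2-DMb2. H2-Aa had the cyclic AMP element letters, found in 1.79% of promoters, at position -74 from its start site and its Y-box letters at -50, and H2-Oa had the Y-box letters alone. Neither start site of H2-DMa had a match, which says only that these letters are not in those windows.

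The kept cells numbered 10238 at baseline and 10396, 10782 and 10117 in infarcts 1 to 3, with medians of 6399, 8557, 8470 and 8504 UMIs per cell. Between 26 and 34 cell barcodes were shared by any pair of libraries. The labels call the cells macrophages, and C1q genes, which define macrophages among these cells, were high in 67.7% of baseline cells and in 78.4%, 84.9% and 85.2% of infarct cells. The rest included monocyte-like, dendritic-like and a few granulocyte-like and B-cell-like cells, so each gene is given for all cells and for types gated on markers that include none of the 10 genes. Macrophages were here cells with at least 20 C1q UMIs per 10000. They were divided in turn into cycling, interferon-response-like, Saa3-Arg1, resident-like, reparative-like and Ccr2-positive macrophages. Those that passed none of these gates are called other macrophages. Such cells had no Ccr2 UMI but could hold some of the other markers, below the number or level that a gate asked for. Type 2 dendritic-like cells (Cd209a, Flt3, Zbtb46, Kmo, Ccl17) numbered 195, 244, 123 and 147 in the 4 libraries, and mature dendritic-like cells (Ccr7, Fscn1, Ccl22) 9, 77, 41 and 27.

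In the sum of all kept cells Cd86 was more than 2-fold lower in the mean of the infarcts than at baseline by CPM, whereas the class II chains and Cd74 were slightly lower in each infarct library by CPM and, H2-Eb1 apart, on both sides of baseline by TMM scaling. Levels are UMIs per 1000000 (CPM) with mitochondrial genes left out, and TMM scaling sets libraries by the bulk of their genes instead of their totals. Since a single library stands for baseline there is no test of infarct against baseline, and the intervals given for baseline are exact 95% Poisson intervals that cover counting error only. In such sums fewer cells of a type and less RNA per cell cannot be told apart. H2-Aa, the alpha chain of I-A, was at 4438 CPM (4422 to 4454) at baseline and at 4241, 3583 and 3389 CPM in the infarcts. H2-Ab1, its beta chain, was at 4189 CPM at baseline and at 4073, 3323 and 3282 CPM in the infarcts, and H2-Eb1, the beta chain of I-E, at 4015 against 3327, 3021 and 2858 CPM. All 3 chains were thus below baseline in 3 of 3 infarct libraries by CPM (by TMM scaling H2-Eb1 alone), infarct 1 being the nearest. Cd74 was at 11610 CPM at baseline and at 10077, 8682 and 8953 CPM in the infarcts.

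The accessory genes spread more widely. Ciita was at 117 CPM (114 to 119) at baseline and at 107, 62.6 and 67.6 CPM in the infarcts (79.1 ± 24.4 CPM, SD, n = 3), with infarct 1 near baseline and well above the other infarcts. H2-DMa, which forms the H2-DM editor with an H2-DMb chain, was at 474 CPM at baseline and at 384, 315 and 332 CPM in the infarcts, and H2-DMb1 at 351 against 327, 273 and 284 CPM. H2-DMb2 overlapped, with 14.4 CPM at baseline and 17.7, 11.3 and 11.8 CPM in the infarcts. H2-Oa, the alpha chain of H2-DO, was the only member above baseline in all 3 infarcts, at 6.15 CPM (5.58 to 6.77) against 15.9, 9.45 and 9.44 CPM. Cd86 was at 261 CPM (257 to 265) at baseline and at 114, 132 and 106 CPM in the infarcts, 2.23-fold lower in the mean. By the rule of a 2-fold difference with all 3 infarct libraries on 1 side, 0 of 10 members were higher, as were 2.57% of 9184 genes, and 1 of 10 was lower, as were 6.37% of genes. The median of these genes was itself at a log2 ratio of -0.20 by CPM and at 0.09 by TMM scaling, so the small differences depended on the scaling: H2-Aa went from a log2 ratio of -0.25 to 0.04, H2-Ab1 from -0.23 to 0.05, H2-DMb1 from -0.25 to 0.03 and H2-DMb2 from -0.08 to 0.20, while H2-Eb1 (-0.39 and -0.10), Cd74 (-0.33 and -0.05), Ciita (-0.56 and -0.28), H2-DMa (-0.46 and -0.18), H2-Oa (0.92 and 1.20) and Cd86 (-1.16 and -0.87) kept the direction of their mean.

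**Figure D1:**
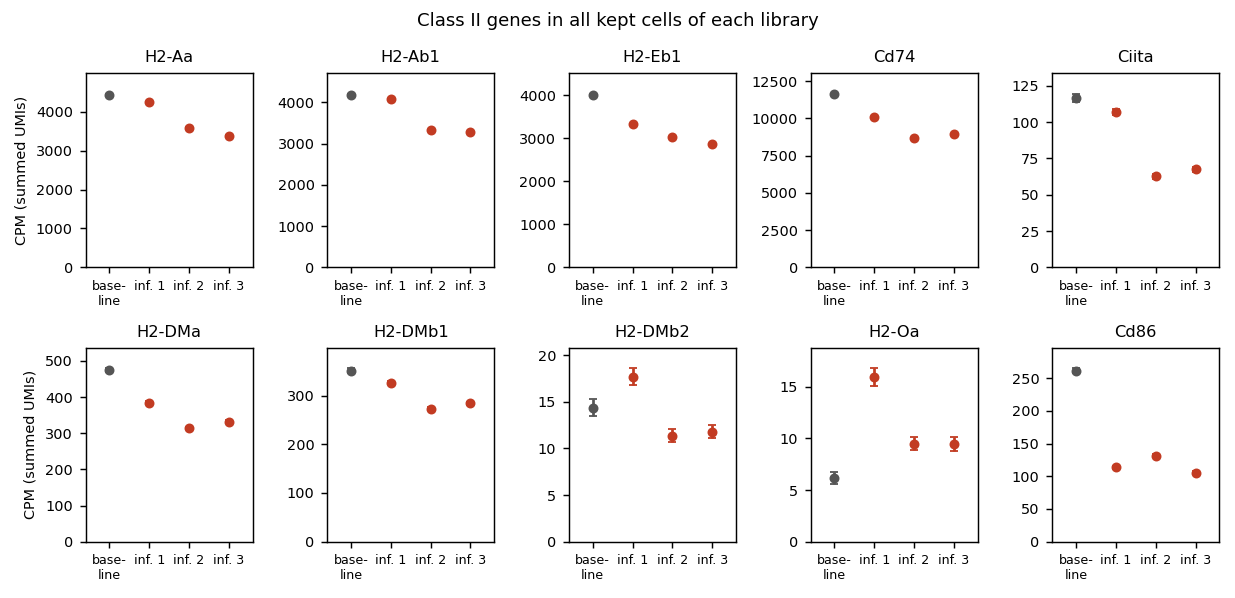
Level of each of the 10 genes in CPM, summed over all kept cells of the baseline library (3 pooled hearts) and of the 3 infarct libraries, with each axis from 0 and exact 95% Poisson intervals as bars. Cd86 sits at 261 at baseline and between 106 and 132 in the infarcts, whereas H2-Oa sits at 6.15 at baseline and between 9.44 and 15.9 in the infarcts.

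The share of cells with at least 1 UMI moved less for the abundant genes. H2-Aa had a UMI in 77.3% of baseline cells and in 80.5%, 74.4% and 76.0% of infarct cells, and Cd74 in 90.0% against 90.9%, 88.0% and 90.4%. Granulocyte-like cells, which should lack class II, had an H2-Aa UMI in 34.8% of cells at baseline and in 35.5%, 31.6% and 43.2% of infarct cells at medians of 2102, 2535, 2542 and 2875 UMIs per cell, so a single UMI of these genes does not mark expression in these libraries. Cd86 had a UMI in 62.1% of baseline cells and in 48.5%, 55.1% and 46.8% of infarct cells, and after each cell was thinned to 2000 UMIs in 36.4% against 18.3%, 22.1% and 17.7%. In granulocyte-like cells thinned in the same way it was 13.5% at baseline and 5.77%, 4.55% and 7.06% in the infarcts.

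Within the infarcts, the levels of the 4 core genes H2-Aa, H2-Ab1, H2-Eb1 and Cd74 were highest in type 2 dendritic-like cells, then in Ccr2-positive macrophages and mature dendritic-like cells, and lowest in granulocyte-like cells. For each of 12 types, the counts summed over the type were compared with the counts of all other cells of the same heart by edgeR's quasi-likelihood test at an adjusted p of 0.01 over all genes, with TMM scaling. H2-Aa reached 11208, 12231 and 11552 CPM in type 2 dendritic-like cells of infarcts 1 to 3, against 3591 ± 415 CPM (SD, n = 3) in the other cells. The log2 fold was 1.71 with a standard error (SE) of 0.06 (edgeR, Benjamini-Hochberg adjusted p 2.4e-14). Ccr2-positive macrophages, the C1q-high cells with the chemokine receptor of recruited monocytes, had 7171, 6861 and 6319 CPM, a log2 fold of 1.41 with an SE of 0.05. Mature dendritic-like cells had 7019, 5668 and 7732 CPM and a log2 fold of 0.91 with an SE of 0.14. In all 3 of these types every heart was above its other cells. The call of H2-Aa in mature dendritic-like cells was lost once cells were thinned to 2000 UMIs and gated again, and without infarct 3 (log2 fold 0.75, edgeR, Benjamini-Hochberg adjusted p 0.012).

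In interferon-response-like macrophages H2-Aa did not pass the test, with 3935, 3191 and 3401 CPM and a log2 fold of 0.03 (edgeR, Benjamini-Hochberg adjusted p 0.68). All remaining types were lower in H2-Aa. Classical monocyte-like cells had 3322, 2626 and 2354 CPM and a log2 fold of -0.40. Reparative-like macrophages, marked by Gpnmb, Spp1 and Trem2, had 1964 ± 108 CPM and a log2 fold of -1.07, other macrophages 2211 ± 365 CPM and -0.86. The few resident-like macrophages left in the infarcts (140, 111 and 172 cells) had 2166, 1458 and 1191 CPM, a log2 fold of -1.37. Saa3-Arg1 macrophages differed widely between hearts, with 1956, 429 and 848 CPM from 974, 76 and 592 cells, and were still lower with a log2 fold of -2.15 and an SE of 0.25, a call that was lost in a fit without the pairing of sums from 1 heart (no replicate block). Granulocyte-like cells held 182, 175 and 228 CPM, a log2 fold of -4.48. Type 1 dendritic-like cells were too few to test (13 cells at baseline and 7, 2 and 5 in the infarcts), and their H2-Aa level was 6827, 7917, 6871 and 8650 CPM.

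H2-Ab1, H2-Eb1 and Cd74 followed nearly the same ranking. In type 2 dendritic-like cells their log2 folds were 1.94, 1.74 and 1.58, in Ccr2-positive macrophages 1.36, 1.54 and 1.38, in reparative-like macrophages -1.13, -1.17 and -1.03 and in Saa3-Arg1 macrophages -2.10, -2.46 and -1.94. Cd74 stood at 24693, 27031 and 27714 CPM in type 2 dendritic-like cells, at 16765, 16358 and 16598 CPM in Ccr2-positive macrophages and at 4799, 1521 and 2423 CPM in Saa3-Arg1 macrophages. When neighbours in the order of core gene level were compared in 1 fit over all types, few of the steps of the core genes passed. On simulated counts this fit recovered 62% of 2-fold changes between 1 pair of types, and other pairs were not simulated. A step that missed the threshold thus does not show equal levels. The step in H2-Aa from type 2 to mature dendritic-like cells, the next type by mean level, had a log2 fold of 0.75 with an SE of 0.27 (edgeR, Benjamini-Hochberg adjusted p 0.034) and missed the threshold, although the hearts of the types did not overlap. The same held from Ccr2-positive to interferon-response-like macrophages (0.93, edgeR, Benjamini-Hochberg adjusted p 0.017). The only step in the H2-Aa order that passed was from Saa3-Arg1 macrophages to granulocyte-like cells, at 2.48 (edgeR, Benjamini-Hochberg adjusted p 6.4e-07). Over 11 pairs of neighbours in a common order and 10 genes, 37 of 110 contrasts passed, 7 of them for the core genes, where 26.2% of all genes and pairs passed.

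**Figure D2:**
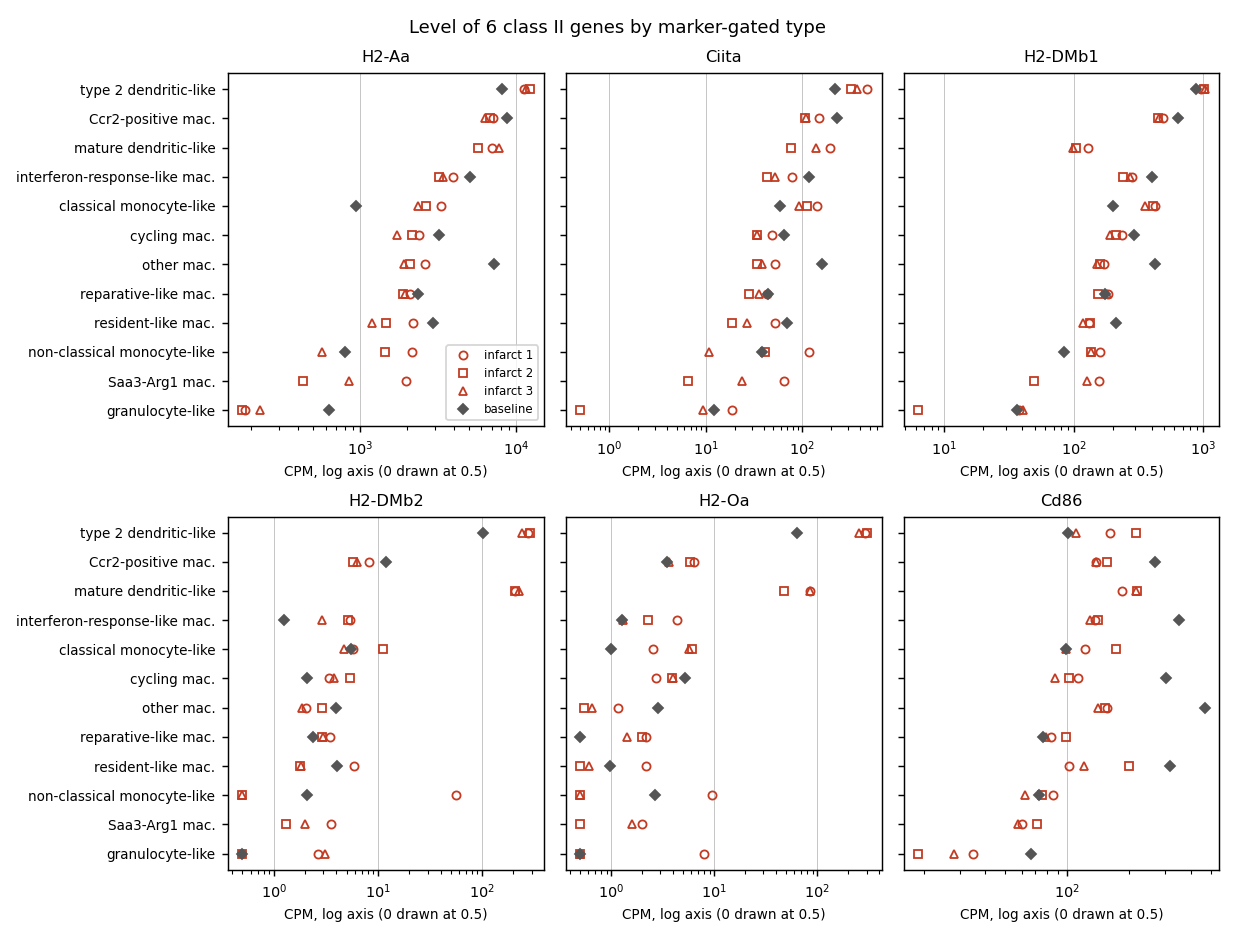
CPM (log axis, 0 drawn at 0.5) of H2-Aa, Ciita, H2-DMb1, H2-DMb2, H2-Oa and Cd86 in 12 gated types, with circles, squares and triangles for infarcts 1, 2 and 3 and grey diamonds for baseline, which is left out where a type had under 20 baseline cells. H2-DMb2 and H2-Oa stand at 48.0 to 305 in the infarct type 2 and mature dendritic-like cells and mostly under 10 in the other types shown. Cd86 keeps to a range of 18.8 to 218 over the types shown in the infarcts. Types too small to test, B-cell-like cells among them, are not shown.

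Ciita, the coactivator of the set, parted from the core genes in classical monocyte-like cells. It stood at 473, 321 and 370 CPM in type 2 dendritic-like cells, a log2 fold of 2.43 with an SE of 0.08 (edgeR, Benjamini-Hochberg adjusted p 5.2e-15), and at 151, 108 and 108 CPM in Ccr2-positive macrophages, a log2 fold of 1.04 whose call was lost with no replicate block. In classical monocyte-like cells it was at 143, 112 and 92.6 CPM and higher than in the other cells, with a log2 fold of 0.68 (edgeR, Benjamini-Hochberg adjusted p 0.00085), although all 4 core genes were lower there, at -0.30 to -0.76. The call of Ciita there was lost with thinned cells and with no replicate block, and those of H2-Aa, H2-Ab1 and Cd74 were lost in the latter. The difference between Ciita and the core genes was not tested. Ciita was lower in reparative-like macrophages, at 42.8, 28.2 and 35.8 CPM. In non-classical monocyte-like cells its level was 118, 40.8 and 10.9 CPM, and its log2 fold of -0.72 passed although 1 of the 3 hearts was above its other cells, a call that was lost without infarct 3 (-0.26), with no replicate block and by the DESeq2 Wald test.

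The H2-DM genes followed the core genes in most types but parted from them in mature dendritic-like cells. H2-DMa stood at 1054, 1100 and 1150 CPM in type 2 dendritic-like cells and H2-DMb1 at 957, 1009 and 1037 CPM, log2 folds of 1.75 and 1.84, and both were also higher in classical monocyte-like cells, at 0.50 and 0.53, calls that were lost with thinned cells. In mature dendritic-like cells H2-DMa was at 245, 144 and 260 CPM and H2-DMb1 at 128, 103 and 98.7 CPM. Both were lower there than in the other cells, with log2 folds of -0.64 and -1.37 (edgeR, Benjamini-Hochberg adjusted p 0.00062 and 2.3e-12), in 3 of 3 hearts. The call of H2-DMa in mature dendritic-like cells was lost by the DESeq2 Wald test, with no replicate block and without infarct 2 (log2 fold -0.46), whereas that of H2-DMb1 held in each of these. H2-DMb2, the neighbouring gene for another form of the beta chain, did the opposite: it was at 276, 287 and 243 CPM in type 2 dendritic-like cells and at 207, 207 and 229 CPM in mature dendritic-like cells, against 8.76 ± 1.70 CPM outside the former. Its log2 folds were 4.95 with an SE of 0.11 and 4.10. H2-DMb1 and H2-DMb2 share parts of their sequence, where reads cannot be told apart. Of the 91-base stretches of their transcripts (GENCODE vM21), 15.7% of those of H2-DMb1 occur in H2-DMb2 and 14.8% the other way. In the last 500 bases, where reads of this assay gather, the shares were 12.4% and 0%.

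H2-Oa, the H2-DO chain, had nearly the same pattern as H2-DMb2. It was at 290, 305 and 255 CPM in type 2 dendritic-like cells against 6.46 ± 1.82 CPM in the other cells, a log2 fold of 5.48 with an SE of 0.12 (edgeR, Benjamini-Hochberg adjusted p 3.8e-17), the highest of the 10 genes in that type. In mature dendritic-like cells it was at 84.8, 48.0 and 85.2 CPM, a log2 fold of 2.70, and the step between these types passed, at 1.90 (edgeR, Benjamini-Hochberg adjusted p 5.7e-08). In Ccr2-positive macrophages, which were rich in the core genes, H2-Oa was at 6.30, 5.84 and 3.61 CPM and H2-DMb2 at 8.26, 5.71 and 6.26 CPM. Both were lower than in the other cells, dendritic-like cells included, at -1.29 and -1.16, calls that were lost with no replicate block. Among the macrophage types, however, Ccr2-positive macrophages had the highest mean of both genes, 5.25 CPM for H2-Oa and 6.74 CPM for H2-DMb2. Cycling macrophages came next for H2-Oa, at 3.52 CPM. For H2-DMb2 the step to the next, interferon-response-like macrophages, missed the threshold (0.52, edgeR, Benjamini-Hochberg adjusted p 0.27). Type 2 dendritic-like cells gave 47.7%, 41.4% and 45.7% of all H2-Oa UMIs in the infarcts from 2.62%, 1.28% and 1.69% of all UMIs. B-cell-like cells (24, 9 and 40 in the infarcts) and plasmacytoid dendritic-like cells (19, 12 and 11) were too few to test. The 2 genes are thus not shown to be confined to the dendritic-like types named here. A UMI of H2-Oa was present in 68.0%, 72.4% and 68.7% of type 2 dendritic-like cells, in 2.8%, 2.6% and 2.1% of Ccr2-positive macrophages and in 3.9%, 0% and 0% of the 76, 57 and 95 granulocyte-like cells, where 0 of 57 and 0 of 95 cells allow shares of cells with a UMI of up to 5.26% and 3.16%, which bounds detection at this depth and not expression.

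Cd86, the costimulatory ligand, was spread more evenly. Mature dendritic-like cells had 185, 218 and 215 CPM (log2 fold 0.86), type 2 dendritic-like cells 161, 216 and 111 CPM (0.47), Ccr2-positive macrophages 138, 156 and 138 CPM (0.50) and other macrophages 156, 153 and 141 CPM (0.37). In other macrophages the remaining 9 genes were lower. The Cd86 calls rested on the settings: with thinned cells those in mature and type 2 dendritic-like cells and in other macrophages were lost, and with no replicate block those in type 2 dendritic-like cells and in Ccr2-positive, other and reparative-like macrophages. The call of Cd86 in other macrophages was also lost without infarct 3 (log2 fold 0.34). Cd86 was lower in reparative-like macrophages, at 83.5, 99.2 and 78.4 CPM (-0.47), and in Saa3-Arg1 macrophages, at 60.4, 71.3 and 57.5 CPM (-0.99). Its range from the lowest to the highest type was smaller than that of the other 9 genes.

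Counted over the 10 genes, 10 were higher in type 2 dendritic-like cells and 0 lower, where 13.8% of all genes were higher and 16.7% lower. The median log2 fold of the 10 was 1.79, against -0.12 over all genes. In Ccr2-positive macrophages 8 were higher and 2 lower (9.24% and 12.1% of genes), and likewise in mature dendritic-like cells (9.93% and 12.9%). Of the 8 higher calls in mature dendritic-like cells, that of H2-DMb2 alone was kept with cells thinned to 2000 UMIs: those of H2-Aa, H2-Eb1, Cd74, Ciita, H2-Oa and Cd86 were lost and the fold of H2-Ab1 turned negative. In classical monocyte-like cells 3 were higher and 4 lower (15.0% and 14.7%), and 1 was higher and 3 lower in interferon-response-like macrophages (8.45% and 6.13%). All 10 were lower in reparative-like macrophages (11.0% of genes higher and 14.3% lower) and in Saa3-Arg1 macrophages (13.4% and 12.6%). In other macrophages 9 were lower and 1 higher (9.29% of genes higher and 13.7% lower), and 9 were lower with none higher in resident-like (6.0% and 6.94%) and cycling macrophages (13.8% and 9.09%) and in non-classical monocyte-like (9.46% and 11.0%) and granulocyte-like cells (4.79% and 8.29%). Of 120 tests, 31 were higher, 76 lower and 13 made no call.

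**Figure D3:**
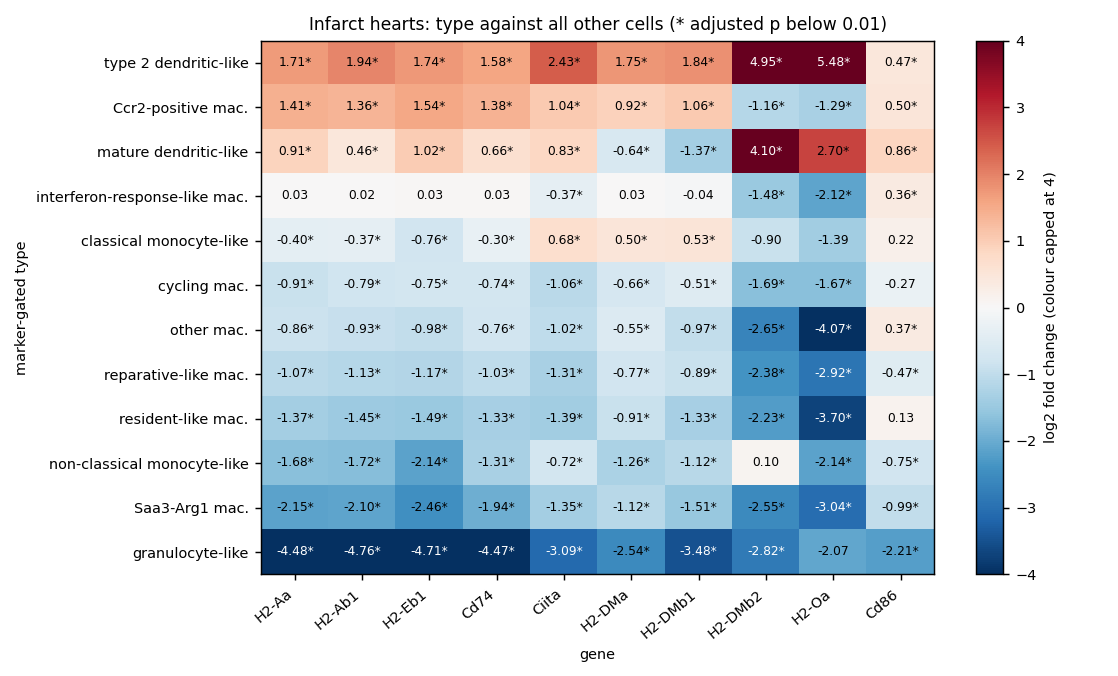
Log2 fold of each of the 10 genes (columns) in each of 12 gated types against all other cells of the same infarct hearts (n = 3), as a colour scale that ends at 4 in either direction, with an asterisk where the adjusted p was below 0.01. Type 2 dendritic-like cells are higher in 10 of 10 genes, Ccr2-positive macrophages in 8 of 10, and reparative-like and Saa3-Arg1 macrophages are lower in 10 of 10.

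Other genes of the pathway were read from lists of 2 further class II genes, 14 regulators, 6 processing genes, 8 turnover and costimulation genes and 10 class I genes. H2-Ob, the second H2-DO chain, was higher in type 2 dendritic-like cells with 101 against 5.61 CPM in the mean (log2 fold 4.18), and H2-Eb2 in mature dendritic-like cells with 153 against 1.13 CPM (7.14). The cathepsins and legumain, which cut antigens and the invariant chain, ran against the class II genes in some types and with them in others. All 6 processing genes were lower in type 2 dendritic-like cells, among them Ctsd at 176, 108 and 178 CPM against a mean of 2589 CPM elsewhere (-4.07) and Ctsb at 391, 301 and 334 against 3812 CPM (-3.47). In Ccr2-positive macrophages 3 of 6 were lower and none higher. The same held for 5 of 6 in mature dendritic-like cells, where 8 of the 10 class II genes were higher and 2 lower. In reparative-like macrophages 5 of 6 were higher, among them Ctsd at 5317, 4154 and 4299 against 1759 CPM (1.47) and Ctsb at 6287, 5923 and 5677 against 2892 CPM (1.14). In granulocyte-like and non-classical monocyte-like cells, by contrast, 5 of 6 processing genes and 9 of the 10 class II genes were both lower, and in classical monocyte-like cells 4 of 6 were lower beside the 4 core genes.

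Of the 14 regulators, 4 were higher and 2 lower in type 2 dendritic-like cells: Irf4 rose to 58, 37 and 33 CPM against 5.74 CPM (2.95) and Irf8 fell to 85, 51 and 47 against 250 CPM (-2.01). In Ccr2-positive macrophages 7 were higher, with small folds such as 0.38 for the interferon-gamma receptor gene Ifngr1. In reparative-like macrophages 1 was higher and 5 lower, Irf4 among the lower at -1.76. Interferon-response-like macrophages had all 10 class I genes higher, among them Tap1 (1.19) and Psmb9 (0.87). In the same cells none of the 4 core class II genes passed the test and Ciita was lower, at 78.3, 43.1 and 51.9 CPM (-0.37), a call that was lost with thinned cells and with no replicate block. Mature dendritic-like cells were higher in all 10 class I genes and in 6 of 8 turnover and costimulation genes, with Cd274, which encodes PD-L1, at 319, 310 and 242 against 13.1 CPM (4.52) and Cd40 at 155, 207 and 233 against 25.5 CPM (2.97). March1 and March8, ubiquitin ligases that remove class II and CD86 from the surface, were the 2 lower ones.

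Within types, the infarct and baseline libraries parted in both directions. How many of all genes lay on 1 side of baseline in all 3 infarcts was not counted. Such counts of the 10 genes, here and in the next paragraph, thus have no share beside them. The median log2 ratio of all genes by CPM was -0.15 in other macrophages, -0.11 in resident-like macrophages and -0.15 in type 2 dendritic-like cells. In other macrophages all 10 genes were below baseline in all 3 infarcts and 9 were past 2-fold, against 6.59% of genes. H2-Aa was at 7261 CPM (7207 to 7316) at baseline and at 2622, 2089 and 1922 CPM in the infarcts, a log2 ratio of -1.72, H2-Eb1 at 6676 against 1923, 1609 and 1496 CPM (-1.99) and Cd86 at 469 against 156, 153 and 141 CPM (-1.65). This type held 2218 baseline cells and 1208, 1887 and 1715 infarct cells. Its median was 4678.5 UMIs per cell at baseline and 6576, 6659 and 5912 in the infarcts. It is defined by failing the other gates, for Ccr2 by having no UMI, so its cells need not be of the same kind in both groups. In resident-like macrophages 8 genes were below baseline in all 3 infarcts and 3 were past 2-fold, against 5.15% of genes. H2-Aa was there at 2936 against 2166, 1458 and 1191 CPM (-0.87), and Cd86 at 318 against 102, 199 and 121 CPM (-1.18). Ccr2-positive macrophages were nearer to each other, with H2-Aa at 8710 against 7171, 6861 and 6319 CPM (-0.36). Among them 9 genes were below baseline in all 3 infarcts by CPM and none was past 2-fold. The median of all genes there was -0.17 by CPM and 0.07 by TMM scaling. Of these cells, 13.2% at baseline and 7.74% to 8.73% in the infarcts had a high doublet score.

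Classical monocyte-like cells went the other way. H2-Aa was at 932 CPM (909 to 955) at baseline and at 3322, 2626 and 2354 CPM in the infarcts, a log2 ratio of 1.57, with 860 baseline cells and 918, 673 and 419 infarct cells. Cd74 was at 2806 against 8571, 6952 and 6379 CPM (1.38), and Ciita at 59.1 against 143, 112 and 92.6 CPM (0.97). There 5 genes were past 2-fold higher, against 3.39% of genes: H2-Aa, H2-Ab1, H2-Eb1, Cd74 and H2-Oa, the last from 7 baseline UMIs. In type 2 dendritic-like cells all 10 genes were above baseline in all 3 infarcts, most of them by little, with H2-Aa at 8137 against 11208, 12231 and 11552 CPM (0.52). The 2 past 2-fold, against 3.59% of genes, were H2-Oa, at 63.0 CPM (52.9 to 74.4, 138 UMIs) against 290, 305 and 255 CPM (2.17), and H2-DMb2, at 101 against 276, 287 and 243 CPM (1.41). The share of these cells with an H2-Aa UMI was 91.3% at baseline and 99.2%, 100% and 100% in the infarcts. Over the 10 types with enough cells, members were past 2-fold higher 8 times and lower 20 times, where 4.99% and 6.71% of all genes were. The TMM scaling moved the median of all genes within types by between -0.09 and 0.31, and by at most 0.18 in other macrophages, classical monocyte-like and type 2 dendritic-like cells. Granulocyte-like cells held 5 of the 20 lower ones, where baseline H2-Aa rested on 104 UMIs from 66 cells and the direction turned once cells of high doublet score were left out (log2 ratio -1.70 and 0.26).

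Exchanging shares and levels showed how both entered the sum of all cells. With the baseline level of each type and the infarct shares of the types, H2-Aa would stand at 4858 ± 144 CPM (SD over the 3 infarcts), above the 4438 CPM of baseline, and with the baseline shares and the infarct levels at 3251 ± 457 CPM. For Cd86 the values were 210 ± 12.3 and 131 ± 24.9 CPM against 261 CPM at baseline, and for H2-Oa 4.57 ± 0.59 and 15.8 ± 2.33 CPM against 6.15 CPM. All types entered, with no least number of cells. The baseline levels thus rested on 6 Saa3-Arg1 macrophages, 9 mature dendritic-like cells and 81 reparative-like macrophages, an error that the SDs do not hold. Ccr2-positive macrophages gave 44.9%, 47.2% and 45.4% of infarct H2-Aa UMIs from 26.6%, 24.6% and 24.3% of all UMIs. At baseline they gave 31.0% from 15.8% of all UMIs, and resident-like macrophages 21.2% from 32.0%. Reparative-like macrophages gave 12.1%, 15.8% and 16.9% in the infarcts from 24.7%, 30.1% and 29.7% of all UMIs.

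Single macrophages varied widely within their types. After each was thinned to 2000 UMIs, the summed UMIs of H2-Aa, H2-Ab1, H2-Eb1 and Cd74 had a median of 53.5 over all baseline macrophages and of 21, 10 and 10 over those of the infarcts, and 7.23% of cells had none at baseline against 13.0%, 18.6% and 16.1%. The median was 99 in baseline Ccr2-positive macrophages and 71, 64 and 62 in the infarcts, but the middle 50% of these cells ran from 27 to 107 in infarct 1, 14 to 115 in infarct 2 and 15 to 109 in infarct 3, against 70 to 124 at baseline. In reparative-like macrophages the medians were 3, 2 and 3 while the upper 5% reached 87.9, 92.0 and 92.3 UMIs or more. In other macrophages the median was 80 at baseline and 7, 4 and 4 in the infarcts.

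**Figure D4:**
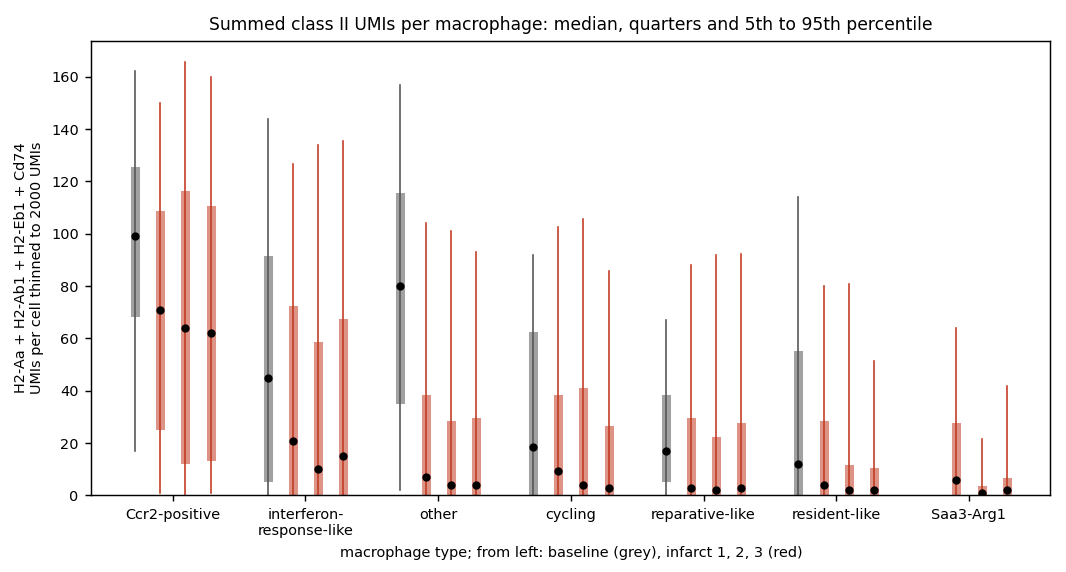
Summed UMIs of H2-Aa, H2-Ab1, H2-Eb1 and Cd74 per macrophage after thinning to 2000 UMIs, by type, with the median as a dot, the middle 50% of cells as a thick bar and the middle 90% as a line, baseline in grey and the 3 infarct libraries in red. Ccr2-positive macrophages have medians of 99 at baseline and 62 to 71 in the infarcts, and reparative-like macrophages 17 and 2 to 3.

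To find the genes that went with class II in one heart, the upper and lower 25% of the macrophages of each infarct by these summed UMIs were compared. The upper cells (1881, 2141 and 1918) had medians of 105, 107 and 99.5 class II UMIs and the lower cells a median of 0. The 4 core genes drew the line and so have no test, and the other members are given as values: Ciita was at 180 ± 33.5 CPM in the upper and 3.66 ± 0.30 CPM in the lower cells, and Cd86 at 155 ± 13.5 and 99.5 ± 13.1 CPM. Of 9963 genes, 8.91% were higher and 8.81% lower. Among the 664 genes that were called with and without each infarct and averaged 50 CPM or more (390 higher and 274 lower), Clec4b1, a C-type lectin gene, led the higher ones, at 121, 162 and 139 CPM against 9.15, 14.3 and 13.2 CPM, a log2 fold of 3.66 with an SE of 0.10 (edgeR, Benjamini-Hochberg adjusted p 9.5e-18). It was followed by Plbd1 (3.17), Ccr2 (2.71), Il1b (2.49), Tnip3 (2.35), Napsa (2.08), Plac8 (2.04) and Ly6a (1.98). Ccr2, the receptor that brings monocytes into the heart, was at 1179, 893 and 963 CPM against 194, 152 and 166 CPM, and Il1b, which encodes interleukin-1 beta, at 1215, 1381 and 1162 against 230, 295 and 217 CPM. Below that level H2-Ob was higher by 2.76. The lowest of the 664 genes in the upper cells were Saa3 (-4.65), Slpi (-4.48), Cd5l (-4.35), Arg1 (-3.42), Gpnmb (-2.93), Spp1 (-2.77), Folr2 (-2.53) and Syngr1 (-2.44). Arg1, whose arginase breaks down arginine, was at 66.4, 4.35 and 38.7 CPM against 673, 125 and 434 CPM, and Spp1, which encodes osteopontin, at 211, 269 and 321 against 2448, 2151 and 1521 CPM.

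Ccr2-positive macrophages made up 72.7%, 66.0% and 66.9% of the upper and 12.3%, 11.9% and 11.5% of the lower cells, and reparative-like macrophages 9.20%, 12.5% and 14.0% against 44.4%, 47.1% and 43.1%. Of the pathway lists, 4 of 6 processing genes were lower in the upper cells, with Ctsd at 897, 929 and 996 against 4725, 3895 and 4016 CPM (-2.01). The 1 higher was Ctss (0.15), a call lost by the DESeq2 Wald test, with no replicate block and without infarct 3 (0.15). By CPM Ctss was at 3679, 3895 and 4004 in the upper and 3707, 3811 and 4042 in the lower cells, so its direction depended on TMM scaling. Other small folds depended on it too: the regulator Irf8 was at 0.09 by CPM and 0.24 in the fit. Of 14 regulators 6 were higher and none lower, but Ifngr1 (0.53) alone of these kept its call in each alternative fit: Rfx5, Irf1, Irf4 (1.27), Irf8 and Spi1 lost theirs by the DESeq2 Wald test and with no replicate block, Irf4 also without infarct 1 (log2 fold 1.32) or 3 (1.14), Irf1 without infarct 1 (0.35), and Rfx5 and Irf8 without infarct 2 (0.67 and 0.19). Of 10 class I genes 7 were higher, H2-T23 the most (0.96), though B2m and Tap2 lost their calls by the DESeq2 Wald test. Markers of other cells moved with the division. The 5 type 2 dendritic-like markers summed to 42.4, 31.6 and 35.2 CPM in the upper and 9.70, 7.04 and 6.20 CPM in the lower cells. The 6 classical monocyte-like markers, Ccr2 among them, summed to 1544, 1070 and 1098 against 326, 233 and 262 CPM. The C1q genes stood at 14079, 16608 and 15711 CPM in the upper cells against 14993, 18834 and 15976 CPM in the lower, nearly level in infarct 3. The part of dendritic-like or monocyte-like RNA in these differences was not tested.

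Over 54 sums of a library and a type with at least 50 cells, the genes most like the mean of the 4 core genes, by Pearson's r of log2(CPM + 10) among 3152 genes, were Tmem176a (0.82), Slamf7 (0.81), Tmem176b (0.80), Plekho1 (0.80), Clec4b1 (0.78) and Gpr183 (0.78), and the least like were Mxi1 (-0.76), Tnfaip2 (-0.76), Adipor1 (-0.72) and Clec4e (-0.70). Over the macrophage sums alone these 4 stood at -0.44, -0.67, -0.27 and -0.50. The genes most like stood there, in the same order, at 0.69, 0.61, 0.74, 0.84, 0.87 and 0.67, so their ranking changed. These sums share 4 libraries and differ in depth, so r is a description. Among the members, H2-DMb1 (0.92), H2-DMa (0.91) and Ciita (0.90) were near the core genes, Cd86 (0.72) further away, and H2-DMb2 and H2-Oa (0.57 each) the furthest, although H2-DMb2 and H2-Oa had an r of 0.95 with each other.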

How the data were processed

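Single-cell 3' libraries (10x Chromium) of 4 samples were analysed. The authors deposited filtered matrices of UMI counts per gene and cell, aligned to mm10 by Cell Ranger (3.1.0 in the matrix headers, 3.0.1 in the submitters' processing notes) with no further normalization. Cells with 500 to 40000 UMIs and more than 200 genes were kept. Types were gated on raw marker counts in a fixed order, with thresholds set after the marker distributions had been seen. Between 1.39% and 3.15% of the cells of a library lay near the C1q threshold. The 10 genes and the pathway and marker lists were chosen with earlier results of these data known. All 10 were named, from each list up to 4 genes by lowest adjusted p, and otherwise those at either end of a ranking. Genes named singly to spell out a count of 5 or fewer were chosen after their values were seen.

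Counts were summed per library and type, and infarct sums were tested by edgeR 4.0.16 (quasi-likelihood, TMM, filterByExpr, the heart as a block, Benjamini-Hochberg over all genes, adjusted p below 0.01) in R 4.3.3, with DESeq2 1.42.0 as an alternative. Each infarct library is 1 heart, and the sum of a type and the sum of its other cells were paired by heart. To be tested or set against baseline, types needed 20 cells in each library used. The exchange of shares and levels had no such limit. Infarct was compared with the single baseline library without a test. Intervals cover counting error only. Counts are of 3' tags, so levels are not compared between genes. H2-Eb1, Ciita, H2-DMa and H2-Oa overlap genes of the other strand. Sums, gates and figures used Python 3.11.15, numpy 2.4.6, scipy 1.17.1, pandas 2.3.3, scanpy 1.11.5 and matplotlib 3.10.9. Scrublet, run in scanpy, called 202, 0, 0 and 1 cells as doublets in the 4 libraries, too few to rely on, so no cell was removed for it and an alternative left out the 8.10% to 8.62% of cells with the highest scores. On counts drawn with 200 genes changed 2-fold, the test recovered 78.5% of them in Ccr2-positive macrophages, 19.5% in mature dendritic-like cells and 87.5% between upper and lower macrophages. For 1 type against another in the fit over all types it recovered 62%.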

Additional observations from a re-analysis of the deposited data

Results flagged for a closer look

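For each of the 10 genes all 3 infarct libraries lay above baseline in one type and below it in another, by any amount. The share of all genes that did so was not counted. The difference between such a pair of types was not tested, since baseline is 1 library. The pair given for a gene is the type with the highest ratio among those above and the lowest among those below. The gap between the log2 ratio in classical monocyte-like cells, which were above, and in other macrophages, which were below, was 3.29 for H2-Aa (1.57 and -1.72), 3.30 for H2-Ab1, 3.50 for H2-Eb1, 3.05 for Cd74 and 2.91 for Ciita (0.97 and -1.94). It was smaller for the H2-DM genes, 1.67 for H2-DMa and 2.38 for H2-DMb1, and 4.12 for H2-Oa, which rested on 7 baseline UMIs in classical monocyte-like cells. For H2-DMb2 the gap was 2.25, between type 2 dendritic-like cells (1.41) and Ccr2-positive macrophages (-0.84), and for Cd86 2.34, between type 2 dendritic-like cells (0.70) and other macrophages (-1.65).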

How the results depend on the processing

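The p-values measure how far the difference within a heart varied over 3 hearts, and in the fit over all types over the types as well. The 1 baseline library limits every comparison with it. Of the tests of the 10 genes in 12 types, 31 were higher and 76 lower. The counts were 26 to 30 and 73 to 77 when 1 infarct was left out, 23 and 59 with no replicate block, that is without the pairing of sums from 1 heart, and 19 and 69 with cells thinned to 2000 UMIs and gated again. Thinning ended 6 of the 8 higher calls in mature dendritic-like cells and turned H2-Ab1 in mature dendritic-like cells to -0.27 (edgeR, Benjamini-Hochberg adjusted p 0.49), and H2-DMb2 in non-classical monocyte-like cells ran from -12.02 without infarct 1, the only library with its UMIs there, to 0.66 without infarct 3. Of the steps between neighbouring types, 37 passed (7 for the core genes), 62 (25) with no filter on low counts, 25 (5) with no replicate block and 25 to 31 (4 to 7) when 1 infarct was left out, the 4 without infarct 3.

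Over all kept cells 0 genes were past 2-fold higher and 1 lower. H2-Oa made it 1 higher by TMM scaling, with thinned cells, with high doublet scores removed and without infarct 2 or 3 (range 0 to 1), and by TMM scaling 0 were lower. Within types 8 were past 2-fold higher and 20 lower, 7 to 14 and 17 to 26 when 1 infarct was left out, the 14 without infarct 3. With thinned cells the log2 ratio to baseline turned to -1.50 for Ciita in non-classical monocyte-like cells, 0.0077 for Ciita in resident-like macrophages and 0.44 for H2-Oa in other macrophages. With high doublet scores removed it turned to 0.26 for H2-Aa, 0.74 for Cd74 and 0.42 for Cd86 in granulocyte-like cells. Between upper and lower macrophages 888 genes were higher and 878 lower, 421 and 324 by the DESeq2 Wald test, 399 and 392 with no replicate block, and 744 to 866 and 714 to 818 when 1 infarct was left out.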
